A study of Mus musculus with 6 samples.

Results

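The genes of mitochondrial protein import were followed in mouse lymphoma cells carrying a hairpin against the RNA helicase gene Dhx9. The set was a fixed list of 37 genes for the translocases of the outer and inner mitochondrial membranes, the sorting machinery of the outer membrane, the import motor, the processing peptidase, the folding chaperones and the disulfide relay. A gene was measured where the array annotation paired its current or former name with a probe set. This held for 34 of the 37 genes, each with 1 probe set, among 18784 genes in all, and Timm23, Pam16 and Tomm20 were not analysed here.

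The Dhx9.1241 group held 3 arrays of Arf-/-Eu-myc/Bcl-2 lymphomas transduced with the shRNA of that name, and the 3 Rluc.713 control arrays were the same kind of lymphoma with Rluc.713, a hairpin named for Renilla luciferase. Both groups therefore lack Arf, a tumour suppressor that acts upstream of p53, and carry Bcl-2 and a Myc transgene driven by the immunoglobulin heavy chain enhancer, which is active in B cells. Both were grown on irradiated Arf-/- embryonic fibroblasts, whose RNA could be present in small amounts, and each hairpin group rests on 1 hairpin. The labels name no drug on these arrays and do not say whether arrays of a group came from separate cultures, so p-values cover the spread among arrays alone, and that spread may be technical.

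Most mitochondrial proteins are made in the cytosol and enter through the TOM complex of the outer membrane. From there, proteins with a cleavable presequence pass the TIM23 complex and are pulled into the matrix by a motor built around the chaperone Hspa9. Hydrophobic proteins without a presequence are carried across the intermembrane space by the small TIM chaperones, as hexamers of Timm9 with Timm10 or of Timm8 with Timm13, to the TIM22 complex or to the outer membrane sorting complex. Loss of human TIMM8A, the counterpart of mouse Timm8a1, causes deafness-dystonia syndrome, and in patients the neighbouring gene BTK is sometimes lost with it. In MYC-driven cells mitochondrial genes are of interest because MYC is known to raise many genes of mitochondrial biogenesis.

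The sequences just upstream of Timm8a1 and of Timm13 are given because these genes encode partners of 1 hexamer, of which Timm8a1 fell and Timm13 did not pass. Each is the 250 bases before the annotated start, from RefSeq (GRCm38.p6, minus strand for both), at chrX:134541671-134541920 for Timm8a1 and chr10:80900970-80901219 for Timm13. Capitals mark CACGTG, the E-box letters bound by MYC with MAX, in Timm8a1, and GCATGCGC, letters of the NRF1 motif, in Timm13. Matches to GGGCGG in Timm8a1 and to TATAAA in Timm13 are left unmarked.
Timm8a1: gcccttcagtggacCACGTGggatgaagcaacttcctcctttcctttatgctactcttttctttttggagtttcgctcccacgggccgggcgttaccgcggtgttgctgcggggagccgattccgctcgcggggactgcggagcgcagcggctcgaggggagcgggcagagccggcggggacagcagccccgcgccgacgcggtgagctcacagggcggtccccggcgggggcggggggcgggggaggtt
Timm13: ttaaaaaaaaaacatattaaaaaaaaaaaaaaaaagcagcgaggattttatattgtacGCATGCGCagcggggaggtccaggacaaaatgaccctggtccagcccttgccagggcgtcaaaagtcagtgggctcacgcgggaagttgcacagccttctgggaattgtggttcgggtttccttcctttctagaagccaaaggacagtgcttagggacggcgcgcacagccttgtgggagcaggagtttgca
The E-box letters in Timm8a1 begin 236 bases before the start. Timm9, which did not pass, has the same letters 58 bases before its start. The Timm8a1 stretch was 69.6% G and C, against 49.2% for Timm13.

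The 250 bases upstream were found for 29 of the 34 measured genes, as 32 stretches because 3 genes have 2 annotated starts. CACGTG was present in 3 of the 32 (9.38%), those of Timm8a1, Timm9 and Hspd1, against 6.02% of 32851 stretches of the same length over all annotated genes and 8.94% of the 9713 that belong to measured genes at or above the median level. GCATGCGC was present in 2 (6.25%), those of Timm13 and Grpel1, against 2.26% and 4.68%. CCGGAAG, the core letters bound by ETS factors, was present in 14 (43.8%), those of 13 genes, against 6.91% and 14.8%, and Timm8b, Timm10, Tomm22, Tomm70a, both processing peptidase genes and both folding chaperone genes were among those with it. The GC box letters GGGCGG were in 22 (68.8%), against 32.7% and 59.1%, CCAAT in 9 (28.1%), against 33.8% and 36.1%, and TATAAA in 3 (9.38%), against 12.4% and 6.15%. Both strands were searched, and the letters of no motif contain those of another, but stretches of neighbouring genes can overlap. These are matches of letters, and binding was not measured.

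Dhx9 itself had levels of 11.46, 11.43 and 11.38 on the log2 scale in the Dhx9.1241 arrays, against 12.41, 12.48 and 12.36 in the Rluc.713 arrays, so the groups did not overlap (log2 change -0.99, SE 0.053, limma adjusted p = 0.000129). The titles of the same arrays name Dhx29, whose levels overlapped between the groups (log2 change 0.04, adjusted p = 0.857). Control replicate 1 stood apart from the other Rluc.713 arrays on the second principal component (16.74 against -4.81 and -5.29), and it was the lowest of the 3 Rluc.713 arrays for 23 of the 34 import genes. This array was not low over all genes. Its median deviation from the Rluc.713 mean was 0.0082 over all genes and -0.043 over the import genes. The counts and the median of the import genes are therefore also given without this array.

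The hairpin comparison asked which import genes differ when Dhx9 is reduced. Timm8a1 fell, and none of the other 33 measured import genes passed the threshold, an adjusted p under 0.05 over all 18784 genes. Of all genes, 3.14% passed that threshold, 2.07% higher and 1.07% lower, so 1 of 34 is close to the share over all genes. That share includes dim genes, while all 34 import genes lay at or above the median level. When the 9392 genes at or above that level were fitted alone, 609 were higher and 382 lower, a larger share than over all genes. Timm8a1 was then still the 1 import gene that passed, so 1 of 34 lay below the share in that fit. Whether the import genes differ from genes of like level was not tested. At an unadjusted p under 0.05, 1 import gene was higher, Timm17b, and 2 were lower, Timm8a1 and Pmpcb, where 8.5% and 5.63% of all genes were. The arrays of the groups did not overlap for 3 genes that were higher and 4 that were lower in Dhx9.1241, where 11.6% and 8.51% of all genes did so (20.1% in either direction). The higher ones were Timm17b, Timm21 and Gfer, and the lower ones Timm8a1, Hspa9, Pmpca and Pmpcb. The median log2 change of the 34 genes was 0.0075, beside 0.0049 over all genes, with 19 genes higher and 15 lower in the mean, where 47.5% of all genes were lower. Without control replicate 1 the median was -0.012, 19 genes were lower in the mean, and Timm8a1 was again the 1 gene that passed. Before adjustment (p under 0.05), that fit had no import gene higher and 4 lower (Timm8a1, Pmpcb, Chchd4 and Tomm22), where 13.1% and 8.92% of all genes were. The groups then did not overlap for 4 import genes that were higher and 8 that were lower, where 24.1% and 17% of all genes did so.

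**Figure D1:**
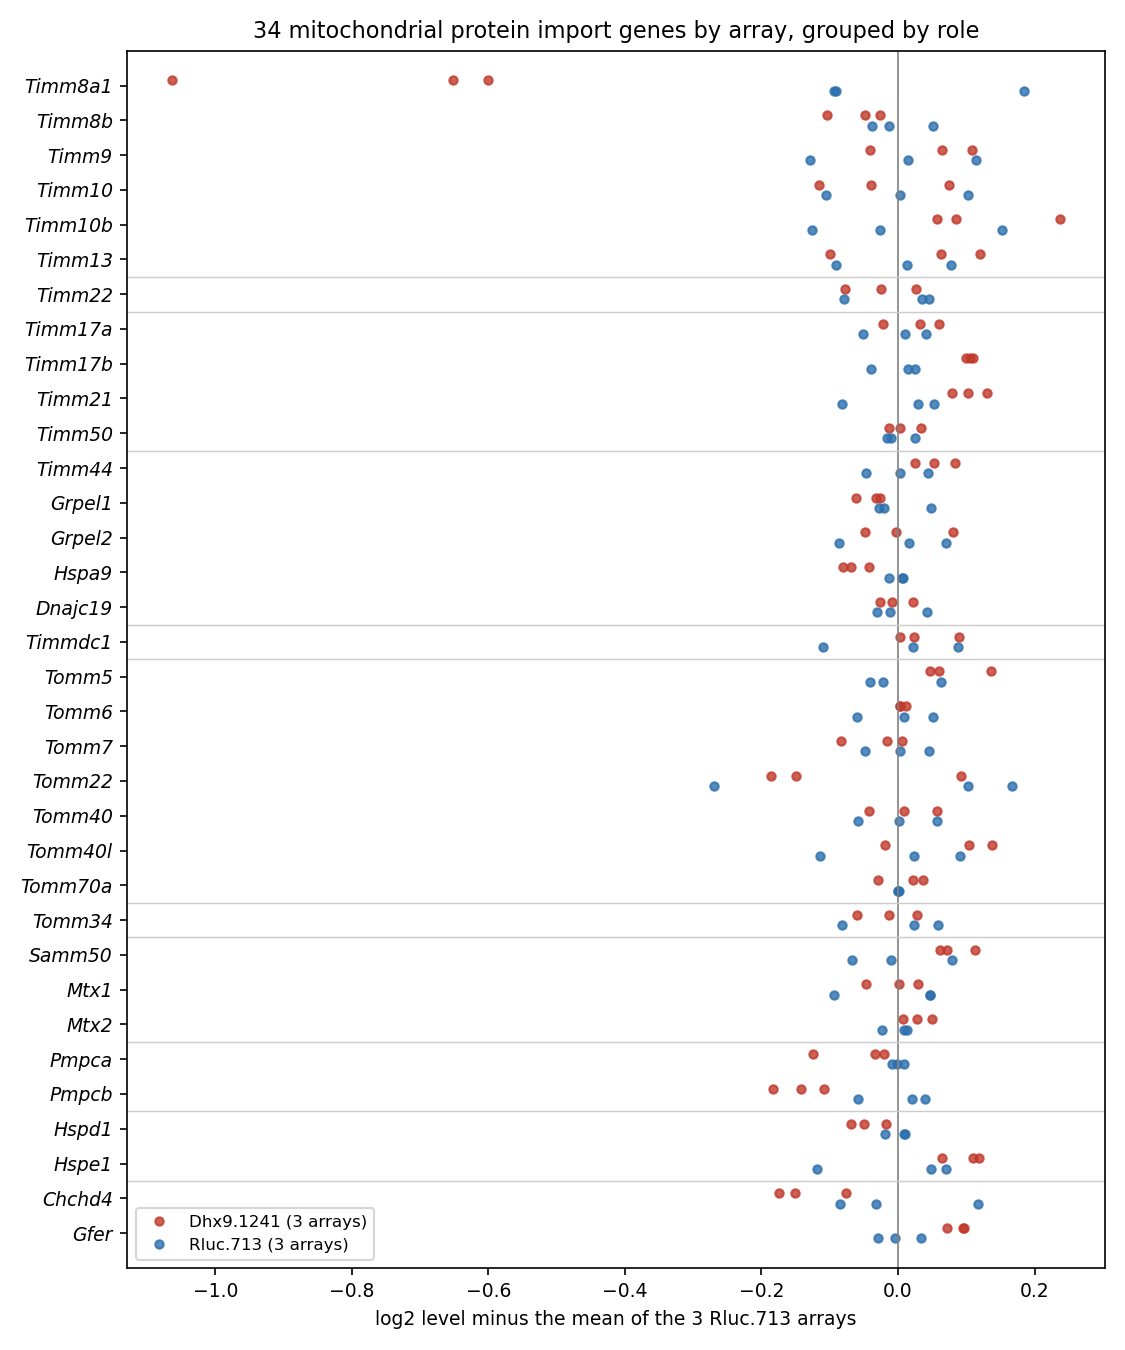
Level of each of the 34 measured import genes on every array, as the log2 level minus the mean of the 3 Rluc.713 arrays (horizontal axis), with Dhx9.1241 arrays in red above Rluc.713 arrays in blue and grey lines between roles. The Dhx9.1241 arrays of Timm8a1 lie between -1.06 and -0.60, and the points of all other genes lie between -0.27 and 0.24.

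The changes of the other 33 genes were small, and their intervals, like the p-values, cover the spread among arrays alone. All 33 had a 95% interval inside -0.5 to 0.5 on the log2 scale, and 31 of them had one inside -0.3 to 0.3. The exceptions to the narrower bound were Tomm22 at its lower end (-0.36) and Timm10b at its upper end (0.31). The largest change among the 33 was that of Pmpcb, a log2 change of -0.14, and the change of Timm8a1 was 5.35 times as large on the log2 scale. All 34 genes lay at or above the median level of all genes, 8.47, with means over the 6 arrays between 9.38 and 12.94. Levels of different genes come from different probes and are not ranked here.

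Timm8a1 encodes the small TIM chaperone that works with Timm13. Its level (probe set 30058_at) was 9.32, 8.86 and 9.27 in the Dhx9.1241 arrays, against 9.83, 10.11 and 9.83 in the Rluc.713 arrays. All Dhx9.1241 arrays lay below all Rluc.713 arrays, with replicate 2 the lowest of the first group and replicate 2 the highest of the second. The means were 9.15 ± 0.25 in Dhx9.1241 and 9.92 ± 0.16 in Rluc.713 (SD, n = 3 each). The log2 change was -0.77 (SE 0.128, 95% interval -1.07 to -0.48, limma adjusted p = 0.0177), a level 1.71-fold lower, and 12 of the 18784 genes, Timm8a1 included, fell by that much or more. This fall was known when the gene was singled out, so its test is not independent evidence. In bulk RNA, fewer cells with a transcript and less transcript per cell cannot be told apart.

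The Timm8a1 call was not secure to the loss of every array. Its standard error was the largest of the 34 genes, followed by that of Tomm22 (0.12). It did not pass without Dhx9.1241 replicate 3 (log2 change -0.83, adjusted p = 0.0598) or without Rluc.713 replicate 2 (-0.68, adjusted p = 0.061). Without any 1 of the other 4 arrays it passed, and over all 6 such fits the log2 change lay between -0.86 and -0.63.

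**Figure D2:**
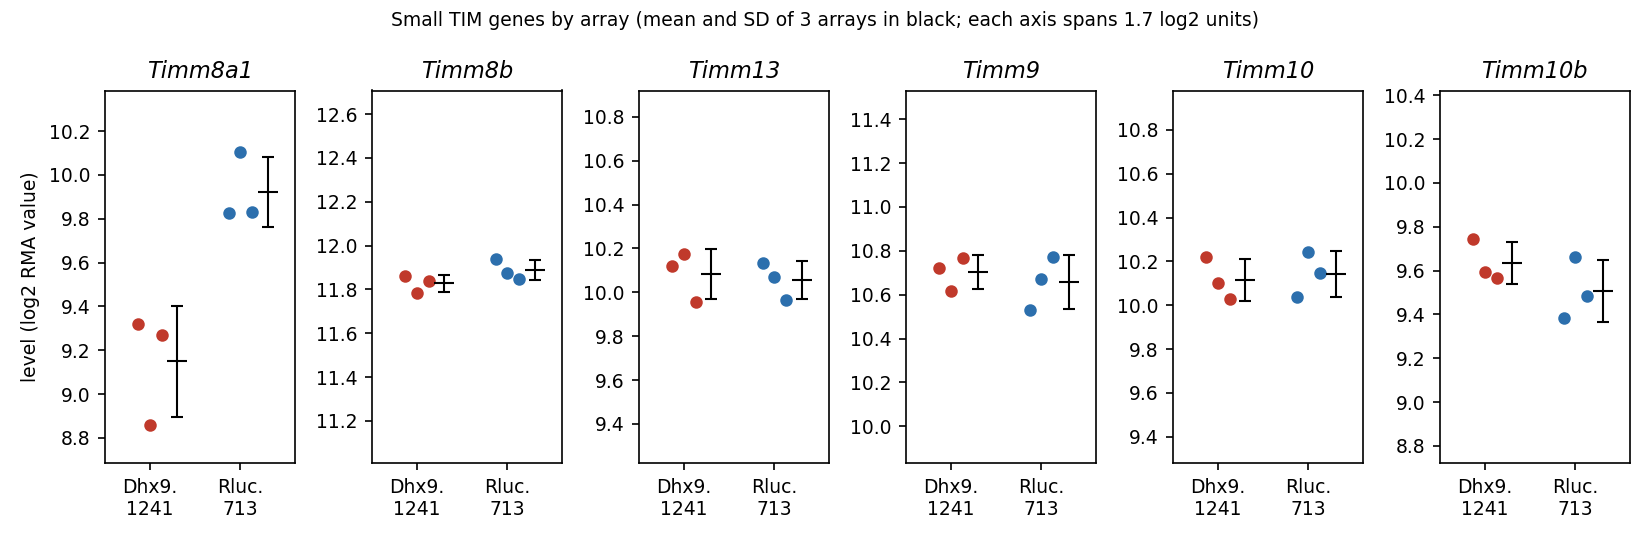
Log2 levels of the 6 small TIM genes on each array, with Dhx9.1241 in red on the left and Rluc.713 in blue on the right of each panel, and the mean and SD of 3 arrays in black; each vertical axis spans the same range but starts at its own level. The groups are apart for Timm8a1 and overlap for the other 5 genes.

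The 5 other small TIM genes did not pass. Timm13, the partner of Timm8 proteins in their hexamer, had levels of 10.12, 10.18 and 9.96 in Dhx9.1241, against 10.13, 10.07 and 9.97 in Rluc.713. The groups overlapped throughout that range (log2 change 0.03, interval -0.14 to 0.19, adjusted p = 0.952). Timm8b, the paralogue of Timm8a1, had levels of 11.86, 11.78 and 11.84 in Dhx9.1241, against 11.94, 11.87 and 11.85 in Rluc.713. The Dhx9.1241 mean was slightly the lower, and the groups overlapped at 1 array (log2 change -0.06, interval -0.17 to 0.06, adjusted p = 0.746).

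Timm9 and Timm10 form the hexamer that carries metabolite carriers to TIM22. Timm9 had levels of 10.72, 10.62 and 10.77 in Dhx9.1241, against 10.53, 10.67 and 10.77 in Rluc.713 (log2 change 0.04, interval -0.12 to 0.21). Timm10 had levels of 10.22, 10.10 and 10.03 in Dhx9.1241, against 10.04, 10.25 and 10.15 in Rluc.713 (log2 change -0.03, interval -0.19 to 0.14). Both overlapped between the groups. Timm10b, which docks the hexamer at the TIM22 complex, had levels of 9.75, 9.59 and 9.56 in Dhx9.1241, against 9.38, 9.66 and 9.48 in Rluc.713. Its mean was the highest above the controls of the 34 genes, but its groups overlapped (log2 change 0.13, adjusted p = 0.618).

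Timm8a1 was then set against each partner within each array, which removes shifts common to an array. Relative to the mean of the 5 partners, and with the Rluc.713 mean set to 0, Timm8a1 was at -0.68, -1.07 and -0.63 in Dhx9.1241, against -0.047, 0.13 and -0.083 in Rluc.713. The difference between the groups was -0.79, close to the change of Timm8a1 alone. For single partners it was -0.71 with Timm8b, -0.75 with Timm10, -0.80 with Timm13, -0.82 with Timm9 and -0.90 with Timm10b. In all 5 pairs the groups did not overlap, and the two-sided exact permutation test gave p = 0.1 for each (0.1 after adjustment over the 5 pairs), the smallest that 3 arrays against 3 allow, so this test could not pass the threshold. Every pair used the same Timm8a1 values, whose fall was already known, so the 5 pairs are not separate evidence.

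Against the other import complexes the difference was of the same size. Timm8a1 minus the mean of the measured genes of a complex differed between Dhx9.1241 and Rluc.713 by -0.78 for TOM (7 genes), -0.83 for TIM23 (4 genes), -0.76 for the motor (5 genes), -0.81 for the sorting complex (3 genes) and -0.67 for the processing peptidase (2 genes). For each of these complexes the 3 Dhx9.1241 arrays lay below the 3 Rluc.713 arrays. With the peptidase, the nearest case, they were between -0.96 and -0.52, against -0.11 to 0.18 in Rluc.713. These comparisons also used the same Timm8a1 values and restate its fall.

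Timm8a2 is a paralogue of Timm8a1, and it had a mean level of 6.31 ± 0.10 in Dhx9.1241 and 6.33 ± 0.052 in Rluc.713 (SD, n = 3 each; log2 change -0.02, interval -0.17 to 0.12). Its level lay at the 12.3th percentile of all genes. The probe sequences were not used here, so whether the Timm8a1 probe set also reads this paralogue was not tested.

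The genes next to Timm8a1 on the X chromosome did not pass. Btk, which encodes the tyrosine kinase of B cell receptor signalling and is the next measured gene on 1 side, had levels of 11.78, 11.67 and 11.75 in Dhx9.1241, against 11.65, 11.73 and 11.62 in Rluc.713. The groups overlapped (log2 change 0.07, interval -0.06 to 0.19, adjusted p = 0.733). Beyond Btk, the log2 changes were 0.02 for Gla, which encodes the lysosomal alpha-galactosidase, and -0.04 for the RNA-binding protein gene Hnrnph2. On the other side they were 0.07 for Taf7l, a dim gene that was higher on every Dhx9.1241 array without passing, 0.08 for Drp2 and -0.10 for the kinetochore gene Cenpi. The lowest interval bound among these 6 genes was -0.28, above the highest bound of Timm8a1 (-0.48).

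**Figure D3:**
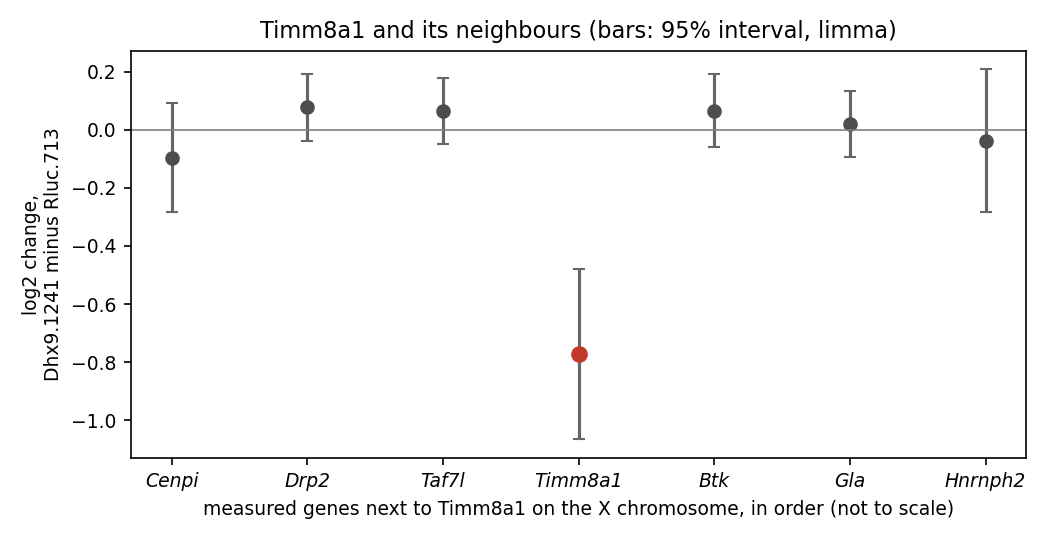
Log2 change (Dhx9.1241 minus Rluc.713) of Timm8a1, in red, and of the 3 nearest measured genes on each side, in chromosome order and not to scale; bars are 95% intervals from limma with 3 arrays a group. Timm8a1 is at -0.77 and its neighbours lie between -0.10 and 0.08.

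At the inner membrane, Timm22, the channel that inserts carriers, had a log2 change of -0.03 (interval -0.15 to 0.10), and its groups overlapped. The 4 TIM23 genes had positive changes, none of which passed, and that of Timm50 turned negative with each array centred on its median (-0.012) and with array weights (-0.0019). Timm17b, a channel subunit, had levels of 11.07, 11.07 and 11.08 in Dhx9.1241, against 10.93, 10.98 and 10.99 in Rluc.713. All Dhx9.1241 arrays were the higher (log2 change 0.11, unadjusted p = 0.0491, limma adjusted p = 0.351). Its paralogue Timm17a overlapped between the groups (0.02, interval -0.09 to 0.14). Timm21, which links TIM23 to TOM and to the respiratory chain, had levels of 10.90, 10.87 and 10.85 in Dhx9.1241, against 10.69, 10.82 and 10.80 in Rluc.713. These groups did not overlap either (0.10, adjusted p = 0.473), and the receptor gene Timm50 was at 0.0074 (interval -0.10 to 0.11). Timmdc1, a relative of the TIM channel proteins that works in complex I assembly, was at 0.04 (interval -0.10 to 0.18).

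No measured motor gene passed. Hspa9, the mitochondrial HSP70 that pulls proteins into the matrix, had levels of 12.91, 12.87 and 12.89 in Dhx9.1241, against 12.94, 12.96 and 12.96 in Rluc.713. All Dhx9.1241 arrays were the lower, by a log2 change of -0.06 (interval -0.17 to 0.04, adjusted p = 0.664). Timm44, which tethers Hspa9 to the channel, was at 0.05, and its nucleotide exchange factor genes Grpel1 and Grpel2 were at -0.04 and 0.0097. The J-protein gene Dnajc19 was at -0.0046. The groups of these 4 genes overlapped.

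In the TOM complex, 5 of 7 measured genes were higher and 2 lower in the mean, all with overlapping groups and none past the threshold. With each array centred on its median, Tomm6, Tomm40 and Tomm70a were on the lower side too (-0.014, -0.012 and -0.0097). Tomm40, the channel, had levels of 11.73, 11.63 and 11.68 in Dhx9.1241, against 11.61, 11.67 and 11.73 in Rluc.713 (log2 change 0.0076, interval -0.11 to 0.13). Tomm70a, the receptor for carrier proteins, was at 0.0098 (interval -0.10 to 0.11). The small subunit genes Tomm5, Tomm6 and Tomm7 were at 0.08, 0.0058 and -0.03, and Tomm40l, a paralogue of the channel gene, at 0.07. Tomm34, a cytosolic co-chaperone of import, was at -0.015.

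Tomm22, the central receptor of the complex, had the largest standard error of the 7 TOM genes. Its levels were 12.07, 12.03 and 12.31 in Dhx9.1241, against 11.95, 12.32 and 12.38 in Rluc.713. Replicate 3 of the first group lay with 2 of the second, and the remaining 3 arrays lay together at the low end. Its SDs of 0.15 and 0.24 left an interval of -0.36 to 0.20 around a log2 change of -0.08 (adjusted p = 0.898). Without control replicate 1, the lowest array, the change was -0.22 (adjusted p = 0.183).

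Of the sorting complex that inserts barrel proteins into the outer membrane, the channel gene Samm50 was at 12.54 ± 0.027 in Dhx9.1241 and 12.46 ± 0.074 in Rluc.713 (SD, n = 3 each). It had a log2 change of 0.08 (interval -0.04 to 0.21), and Mtx1 and Mtx2, the metaxins, were at -0.0056 and 0.03. None of the 3 passed.

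Both genes of the peptidase that removes presequences in the matrix were lower on every Dhx9.1241 array, and neither passed. Pmpcb, the catalytic subunit, had levels of 10.45, 10.41 and 10.49 in Dhx9.1241, against 10.53, 10.61 and 10.63 in Rluc.713. The log2 change was -0.14 (interval -0.26 to -0.03, unadjusted p = 0.0207, limma adjusted p = 0.222). Pmpca, the substrate-binding subunit, had levels of 11.97, 11.96 and 11.87 in Dhx9.1241, against 12.00, 11.98 and 11.99 in Rluc.713 (log2 change -0.06, adjusted p = 0.732).

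Hspd1 and Hspe1 encode HSP60 and HSP10, which together form the folding chamber of the matrix, and the genes lie head to head. Hspd1 had levels of 12.89, 12.91 and 12.94 in Dhx9.1241, against 12.94, 12.97 and 12.97 in Rluc.713 (log2 change -0.05, interval -0.15 to 0.06). Hspe1 had levels of 11.68, 11.69 and 11.63 in Dhx9.1241, against 11.62, 11.64 and 11.45 in Rluc.713 (log2 change 0.10, interval -0.04 to 0.24). The means of the pair differed in opposite directions, and the groups of both genes overlapped.

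The disulfide relay folds the small TIM proteins in the intermembrane space. Chchd4, its oxidoreductase, had levels of 11.05, 11.07 and 11.14 in Dhx9.1241, against 11.14, 11.19 and 11.34 in Rluc.713. The groups overlapped at 1 array (log2 change -0.13, interval -0.28 to 0.01, unadjusted p = 0.068, limma adjusted p = 0.42). Gfer, the oxidase that recharges Chchd4, had levels of 10.32, 10.32 and 10.30 in Dhx9.1241, against 10.20, 10.26 and 10.22 in Rluc.713, and these groups did not overlap (0.09, adjusted p = 0.48).

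Further genes linked to import were counted in 4 lists. Among 14 measured genes of other import steps, such as inner membrane insertion and peptide cleavage, none passed in the limma test. At an unadjusted p under 0.05, 3 of the 14 were higher and none lower, where 8.5% and 5.63% of all genes were. The median log2 change was -0.03. The largest changes were those of Immp1l, a subunit of the inner membrane peptidase (-0.20, adjusted p = 0.558), and Pitrm1, which degrades cleaved presequences (0.14, adjusted p = 0.19). Immp1l was dim, at the 6.3th percentile of level. Among 15 genes of matrix proteases and chaperones, none passed in the limma test, and the median was 0.07. Before adjustment (p under 0.05), 3 of the 15 were higher and 1 lower, beside the same shares of all genes. The co-chaperone gene Hscb was at 0.26 (adjusted p = 0.11) and the protease gene Clpp at 0.15 (adjusted p = 0.173).

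Genes whose products the small TIM chaperones or the disulfide relay handle were counted in the same way, beside the 2.07% of all genes that were called higher. Of 23 measured metabolite carrier, pyruvate carrier and porin genes, Slc25a36, which encodes a pyrimidine nucleotide carrier, rose and 22 did not pass. Slc25a36 was at 10.53, 10.58 and 10.59 in Dhx9.1241, against 10.28, 10.27 and 10.39 in Rluc.713 (log2 change 0.25, adjusted p = 0.0477). Of 19 clients of the disulfide relay, Chchd5, which encodes a small cysteine-motif protein, rose and 18 did not pass. Chchd5 was at 10.41, 10.32 and 10.33 in Dhx9.1241, against 10.04, 10.14 and 10.14 in Rluc.713 (0.25, adjusted p = 0.0489). Neither call held when any 1 array was left out (adjusted p of 0.0537 to 0.176 for Slc25a36 and 0.0525 to 0.206 for Chchd5), nor with each array centred on its median (0.118 and 0.131). The medians of these lists were 0.016 and -0.0011.

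Markers of other cell types were read beside these results, as the log2 of their summed unlogged levels. For 14 myeloid genes the sum was 12.41 to 12.48 in Dhx9.1241 and 12.81 to 12.87 in Rluc.713. In the mean, 13 of the 14 were lower. Of the 14, 4 fell, Lyz2, Csf1r, Tyrobp and Fcer1g (log2 changes -1.31, -0.45, -0.37 and -0.32), where 1.07% of all genes were called lower. With 1 array left out, Lyz2 and Tyrobp passed in 6 of 6 fits, Csf1r in 2 (adjusted p up to 0.0863) and Fcer1g in 1 (up to 0.114). Itgam, a myeloid integrin gene and the 1 gene of this list with a higher mean, was higher on every Dhx9.1241 array without passing (0.21, adjusted p = 0.152). For 19 fibroblast genes it was 14.34 to 14.38 in Dhx9.1241 and 14.27 to 14.31 in Rluc.713, and 1 fell, Cav1 (-0.25, adjusted p = 0.0485), which did not pass when any 1 array was left out. Vim, which many cell types express, made up 68.7% to 73.7% of that sum, and without it, an alternative chosen after seeing the data, the sum was 12.45 to 12.47 in Dhx9.1241 and 12.45 to 12.63 in Rluc.713. In the mean, 11 of the 19 genes were lower. For 10 B cell genes it was 15.93 to 16.00 in Dhx9.1241 and 16.04 to 16.11 in Rluc.713. All 10 lay above the median level of all genes, and Vpreb3 fell (-0.57). In the mean, 8 of the 10 were lower, and Ms4a1, which encodes CD20, was higher on every Dhx9.1241 array without passing (0.31, adjusted p = 0.0717). Itgam, Vim and Ms4a1 were chosen after their values were seen. For 13 T and NK cell genes it was 12.78 to 12.87 in Dhx9.1241 and 12.80 to 12.84 in Rluc.713, and limma called none of them (1 higher at an unadjusted p under 0.05). The part of these shifts in the fall of Timm8a1 was not tested.

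**Figure D4:**
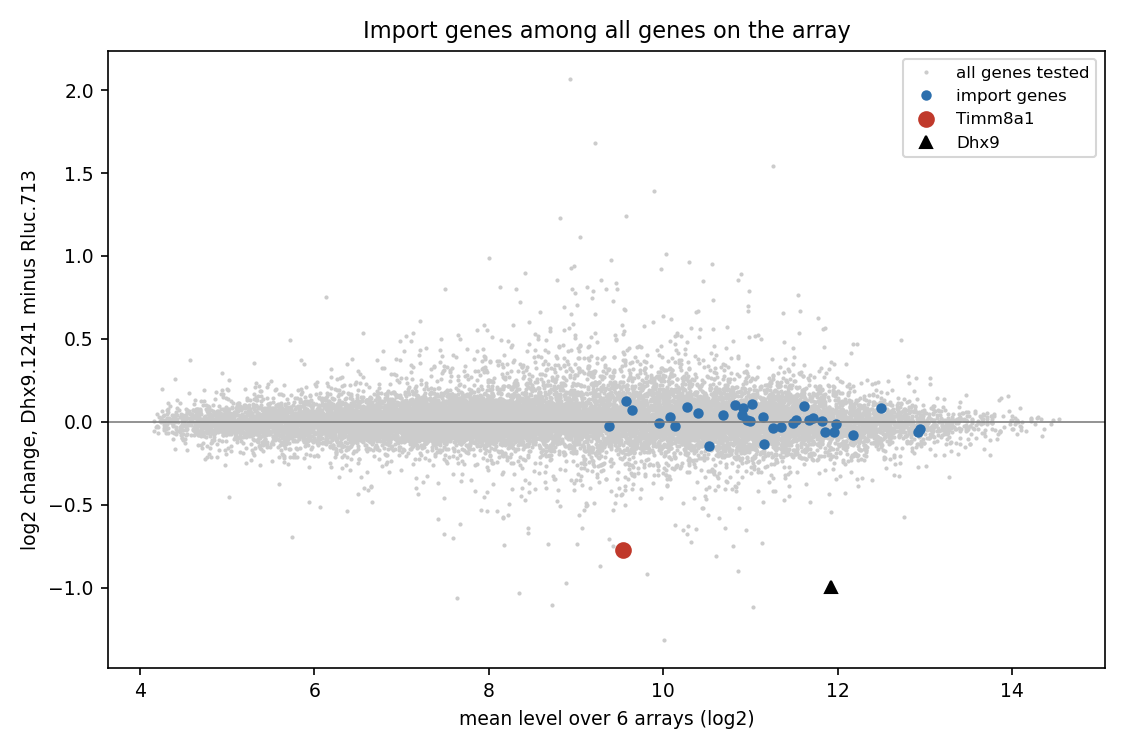
Mean level over the 6 arrays (log2, horizontal axis) and log2 change, Dhx9.1241 minus Rluc.713 (vertical axis), of all 18784 genes in grey, the import genes in blue, Timm8a1 in red and Dhx9 as a black triangle. Timm8a1 at -0.77 lies below the other import genes, which lie between -0.14 and 0.13.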

How the data were processed

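RNA of 6 cultured mouse lymphoma samples was hybridised to Affymetrix arrays. The authors deposited log2 levels per probe set. RMA is the method that the submitters' processing notes name; it corrects background, normalizes arrays together and summarises probes, which can compress changes of dim genes. The RMA version, build and definition of probe sets were not given in the sources used here. Values ran over 3.97 to 14.57, which fits a log2 scale.

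Of 21212 probe sets, 18786 had 1 gene symbol, 6 several and 2420 none; the last 2 kinds were not tested. Symbols were updated by Entrez number through a RefSeq gene table (18775 matched). The brightest probe set stood for a gene (2 genes had several), giving 18784 genes with no filter. Groups follow the hairpin in the labels. Dhx9.1241 minus Rluc.713 was fitted with limma 3.58.1 in R 4.3.3, with no covariate and Benjamini-Hochberg adjustment over all genes, two-sided, and checked on simulated data; intervals are 95%. Named genes were every measured member, Dhx9, Dhx29, Myc, Timm8a2, Btk, the 3 measured genes on each side of Timm8a1, and in each other list up to 4 called genes with the largest change, or 2 where none was called. Myc was higher on every Dhx9.1241 array, as were 11.6% of all genes, without passing (log2 change 0.14, limma adjusted p = 0.239). It passed in 1 of the 15 alternatives. Among T and NK markers, Klrb1c (0.22) and Zap70 (-0.15) had the largest changes. The members and lists were chosen with earlier results of these data known. Alternatives were 2 filters on dim genes, the mean of probe sets, 3 normalizations, 2 variance models, the replicate number as a block and leaving out each array. The number of arrays limits the precision.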

Additional observations from a re-analysis of the deposited data

How the results depend on the processing

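Across 15 alternatives Timm8a1 stayed lower in Dhx9.1241 and passed in 12. Among them were 3 normalizations, 2 filters on dim genes, the mean over probe sets, array weights and robust limma with a trend in the variance, with adjusted p-values of 0.00236 to 0.0177. The mean over probe sets could not change the levels of Timm8a1, which has 1 probe set. Leaving out 1 array gave log2 changes of -0.86 to -0.63 and 0 to 1 import genes lower, and its difference from the small TIM partners was -0.88 to -0.66. The replicate number as a block gave 0 import genes lower, with Timm8a1 at -0.77 (limma adjusted p = 0.0578), 172 genes higher and 92 lower. The numbers do not pair the arrays: deviations of same-numbered arrays correlated at -0.27, -0.34 and 0.24. Under no alternative did an import gene pass higher. The difference in the fibroblast marker sum was 0.078, and -0.059 without Vim.

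Over all genes, 389 were higher and 201 lower. Counts were 669 and 542 with array weights, 673 and 466 with robust limma and a trend, 609 and 382 for the brighter 50% of genes, and 353 and 341 lower after quantile normalization again and cyclic loess. Leaving out 1 array gave 126 to 497 higher and 70 to 399 lower. Genes that were higher made up 65.9% of calls, against 55.2% with array weights and 55.5% without Rluc.713 replicate 1. The import gene median was -0.012 with each array centred on its median, and -0.012 to 0.018 with 1 array left out.

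Signs of genes near 0 turned. With each array centred on its median, Timm50 was at -0.012, Grpel2 at -0.0099, Tomm6 at -0.014, Tomm40 at -0.012, Tomm70a at -0.0097 and Gla at -2e-04. With array weights, Timm50 was at -0.0019, Tomm6 at -0.012 and Tomm40 at -0.0079. With 1 array left out the ranges were -0.020 to 0.10 for Timm9, -0.079 to 0.024 for Timm10, -0.018 to 0.092 for Timm13, -0.066 to 0.00070 for Timm22, -0.0024 to 0.046 for Timm17a, -0.0055 to 0.020 for Timm50, -0.034 to 0.045 for Grpel2, -0.020 to 0.017 for Dnajc19, -0.016 to 0.083 for Timmdc1, -0.024 to 0.032 for Tomm6, -0.22 to 0.0025 for Tomm22, -0.022 to 0.036 for Tomm40, -0.0038 to 0.029 for Tomm70a, -0.056 to 0.015 for Tomm34, -0.052 to 0.018 for Mtx1, -0.067 to 0.035 for Timm8a2, -0.0099 to 0.044 for Gla and -0.15 to 0.059 for Hnrnph2. The cause of these shifts was not tested, and a fit with fewer arrays has less power by its construction.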
